A study of Mus musculus with 12 samples.

Results

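Gene expression in BV2 mouse microglial cells given telmisartan and then LPS was compared with that in cells given vehicle alone. The comparison covered all 22180 genes that the platform annotation names by 1 symbol, each read from its brightest feature over the 12 arrays. It set 3 arrays of cells given both agents against 3 of cells given vehicle. All 12 arrays entered 1 fit, so the arrays of the other treatments also set the spread behind each p-value. The comparison asks what differed from baseline in cells given LPS after the drug, so each change holds any effect of the drug itself as well as that of LPS. Of the 22180 genes, 40 (0.18%) differed between the groups at a Benjamini-Hochberg adjusted p under 0.05 in limma, and these are described as called. Of them, 36 (0.162%) rose and 4 (0.018%) fell. The 6 largest rises, each over 4-fold, were Cxcl2, Cxcl10, Il1b, Il6, Il1a and Tnfaip3.

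BV2 is an immortalised line of mouse microglia, the resident macrophages of the brain, and the cells were wild type. Every group carried 1.5% DMSO. The vehicle group had DMSO for 3 h, and the telmisartan+LPS group had telmisartan for 2 h and then LPS for 1 h. The other groups were LPS (vehicle for 2 h, then LPS for 1 h) and telmisartan without LPS for 3 h. No dose of the drug is stated in the sources used here. The labels call the samples of a group independent but tie no array to a culture of its own, so a p-value reflects only how far these arrays spread, which may be technical.

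LPS, a component of the outer membrane of Gram-negative bacteria, is sensed by Toll-like receptor 4 together with CD14 and MD-2. The receptor's adaptors start NF-kB and MAP kinase signalling within minutes, and the first genes to be transcribed encode cytokines, chemokines and the inhibitors that later switch the signal off. Telmisartan blocks the angiotensin II type 1 receptor and is a partial agonist of PPAR gamma.

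Levels are log2 signals and changes are differences of mean log2 signals, printed with their standard error (SE) from the fit. The median change of all genes was 0.0033. All 10 microglial markers examined had mean signals over 5, and their summed log2 signal ran from 92.74 to 93.5 in the DMSO arrays and from 93.12 to 93.69 in the telmisartan+LPS arrays. No member of the microglial list or of the astrocyte, neuron, oligodendrocyte, endothelial, fibroblast and lymphocyte lists was called. The summed signal of the 7 oligodendrocyte markers ran from 29.33 to 30.15 with DMSO and from 30.3 to 30.9 with telmisartan+LPS, without overlap, while the ranges of the other lists overlapped; 1 of the 7 had a mean over 5, and their part in the results was not tested. In bulk RNA, fewer cells of a type and less RNA per cell cannot be told apart. A principal component analysis put the LPS-treated arrays, with and without the drug, on the opposite side of the first component (20.3% of the variance) from the others. Telmisartan+LPS replicate 3 stood apart on the second component (13.2%), at 20.18 against -9.78 to 6.83 for the other arrays, and replicate 1 on the third (9.7%), at 17.31 against -8.38 to 7.28. With both arrays left out, an alternative chosen after seeing the data, 22 genes were called higher, 18 of them among the 36, and 1 lower, which was not among the 4. Replicate 3 was the lowest telmisartan+LPS array in 29 of the 36 rises.

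The promoters of the 4 largest rises are shown because the encoded cytokines and chemokines are textbook NF-kB target genes. Each line is 300 bases of RefSeq sequence (GRCm38.p6) on the gene's own strand, from 250 bases before the start of the gene to 50 after, and capitals mark matches to the kappa B consensus, which was searched for on both strands.
Cxcl2, chr5:90903649-90903948, plus strand: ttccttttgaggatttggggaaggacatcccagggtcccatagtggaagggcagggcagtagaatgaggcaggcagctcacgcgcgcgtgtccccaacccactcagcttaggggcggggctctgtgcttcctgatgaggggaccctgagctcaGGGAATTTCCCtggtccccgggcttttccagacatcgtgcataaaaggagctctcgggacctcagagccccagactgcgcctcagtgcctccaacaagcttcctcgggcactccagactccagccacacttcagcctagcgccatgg
Cxcl10, chr5:92348840-92349139, minus strand: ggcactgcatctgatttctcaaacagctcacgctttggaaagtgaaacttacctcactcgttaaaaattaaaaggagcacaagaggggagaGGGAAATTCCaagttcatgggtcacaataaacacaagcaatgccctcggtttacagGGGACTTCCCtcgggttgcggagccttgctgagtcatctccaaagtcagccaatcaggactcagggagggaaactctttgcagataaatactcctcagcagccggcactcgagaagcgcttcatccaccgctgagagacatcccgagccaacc
Il1b, chr2:129371090-129371389, minus strand: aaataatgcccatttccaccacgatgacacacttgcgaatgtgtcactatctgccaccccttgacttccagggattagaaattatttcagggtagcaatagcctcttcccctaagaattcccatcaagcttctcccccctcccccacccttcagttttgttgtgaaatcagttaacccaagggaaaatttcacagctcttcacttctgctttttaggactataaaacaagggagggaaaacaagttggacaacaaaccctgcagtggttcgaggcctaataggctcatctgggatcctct
Il6, chr5:30012864-30013163, plus strand: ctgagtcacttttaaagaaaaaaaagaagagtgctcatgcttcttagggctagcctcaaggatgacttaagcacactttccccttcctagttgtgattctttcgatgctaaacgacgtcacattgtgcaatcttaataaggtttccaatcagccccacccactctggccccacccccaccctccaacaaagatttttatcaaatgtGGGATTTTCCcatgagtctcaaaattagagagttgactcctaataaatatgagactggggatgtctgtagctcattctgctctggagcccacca
The Cxcl2 window holds a pair of overlapping matches, 1 on each strand, at positions -97 and -96 from the start. That of Cxcl10 holds 2 matches, at -159 and -103, and that of Il6 holds 1, at -44. No match lies in the Il1b window, which says only that these letters are absent from it. Across all promoter windows in the table, 4.51% (1480 of 32851) hold a match. Of the 36 called rises, 29 have a window in the table, and 10 of these genes have a match, compared with 5.14% of all genes in the table. The 10 are Cxcl2, Cxcl10, Il6, Tnfaip3, Ccrl2, Ier3, Nfkbia, Irf1, Pde4b and Nlrp3, and none of the 3 called falls in the table has one. A match is a description of the sequence and not evidence of binding.

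Secreted cytokines and chemokines made up the largest rises. Of 25 cytokine genes measured, 4 rose and none fell, with a median log2 change of 0.18 over the list, and 7 rose with a trended robust fit in limma. Of 19 chemokine genes, 4 rose and none fell, with a median of 0.083.

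Cxcl2, a chemokine that draws neutrophils, measured 5.98, 5.08 and 5.27 in the DMSO arrays and 9.14, 9.11 and 8.85 in the telmisartan+LPS arrays. The rise was 3.59 ± 0.23 (SE), or 12-fold (95% interval 8.52 to 17.0; adjusted p = 5e-06). Every telmisartan+LPS array was thus far above every DMSO array, and the DMSO arrays spread more than the treated ones. Cxcl10, a chemokine for activated T cells, measured 6.21, 6.51 and 6.44 with DMSO and 9.84, 9.66 and 9.61 with telmisartan+LPS. It rose by 3.32 ± 0.10, or 9.96-fold (8.55 to 11.6; adjusted p = 1.81e-09), with all 3 treated arrays close together and no overlap.

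Il1b encodes the pro-form of interleukin-1 beta, which caspase-1 must cut before it is active. It measured 5.73, 5.93 and 6.48 with DMSO and 9.66, 9.28 and 8.54 with telmisartan+LPS, a rise of 3.11 ± 0.24, or 8.65-fold (6.06 to 12.3; adjusted p = 2.29e-05). Its treated arrays were all above the vehicle arrays, with replicate 3 the lowest of them. Il6, the gene of a cytokine that induces the acute phase response, measured 4.60, 4.90 and 4.68 with DMSO and 7.63, 7.41 and 6.36 with telmisartan+LPS. The rise was 2.41 ± 0.24, or 5.30-fold (3.69 to 7.61; adjusted p = 0.000243). Replicate 3 again lay below the other treated arrays, by more than the whole range of the vehicle arrays, and without it the rise in Il6 was 2.79. Il1a, the gene of the sister cytokine interleukin-1 alpha, measured 6.39, 6.63 and 6.38 with DMSO and 9.32, 8.89 and 8.27 with telmisartan+LPS, and rose by 2.36 ± 0.19 (adjusted p = 2.6e-05). The groups did not overlap, and replicate 3 was lowest here too.

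Tnf, the gene of tumour necrosis factor, was already bright in vehicle cells, at 10.64, 11.02 and 10.85, and measured 12.29, 12.26 and 12.17 with telmisartan+LPS. It rose by 1.4 ± 0.09, or 2.65-fold (2.30 to 3.04; adjusted p = 5.7e-06), and its treated arrays lay within a narrow range above all vehicle arrays. A pair of chemokine genes for monocytes and T cells rose less. Ccl5 measured 6.18, 6.15 and 6.24 with DMSO and 6.95, 6.83 and 6.77 with telmisartan+LPS, a rise of 0.66 ± 0.11 (adjusted p = 0.0239). Ccl4 measured 9.95, 9.73 and 9.88 with DMSO and 10.59, 10.55 and 10.31 with telmisartan+LPS, a rise of 0.63 ± 0.11 (adjusted p = 0.0272). Neither gene's groups overlapped. Both calls depended on single arrays. That of Ccl5 was lost without any 1 of the 3 DMSO or the 3 telmisartan+LPS arrays, at changes of 0.61 to 0.70 and adjusted p of at most 0.121. That of Ccl4 was lost without any 1 DMSO array, telmisartan+LPS replicate 1 or 2, or LPS replicate 2, at 0.57 to 0.68 and adjusted p of at most 0.133. With telmisartan+LPS replicates 1 and 3 both left out, 2 of the 19 chemokine genes were called and the same number of cytokine genes, 4, as with all arrays.

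**Figure D1:**
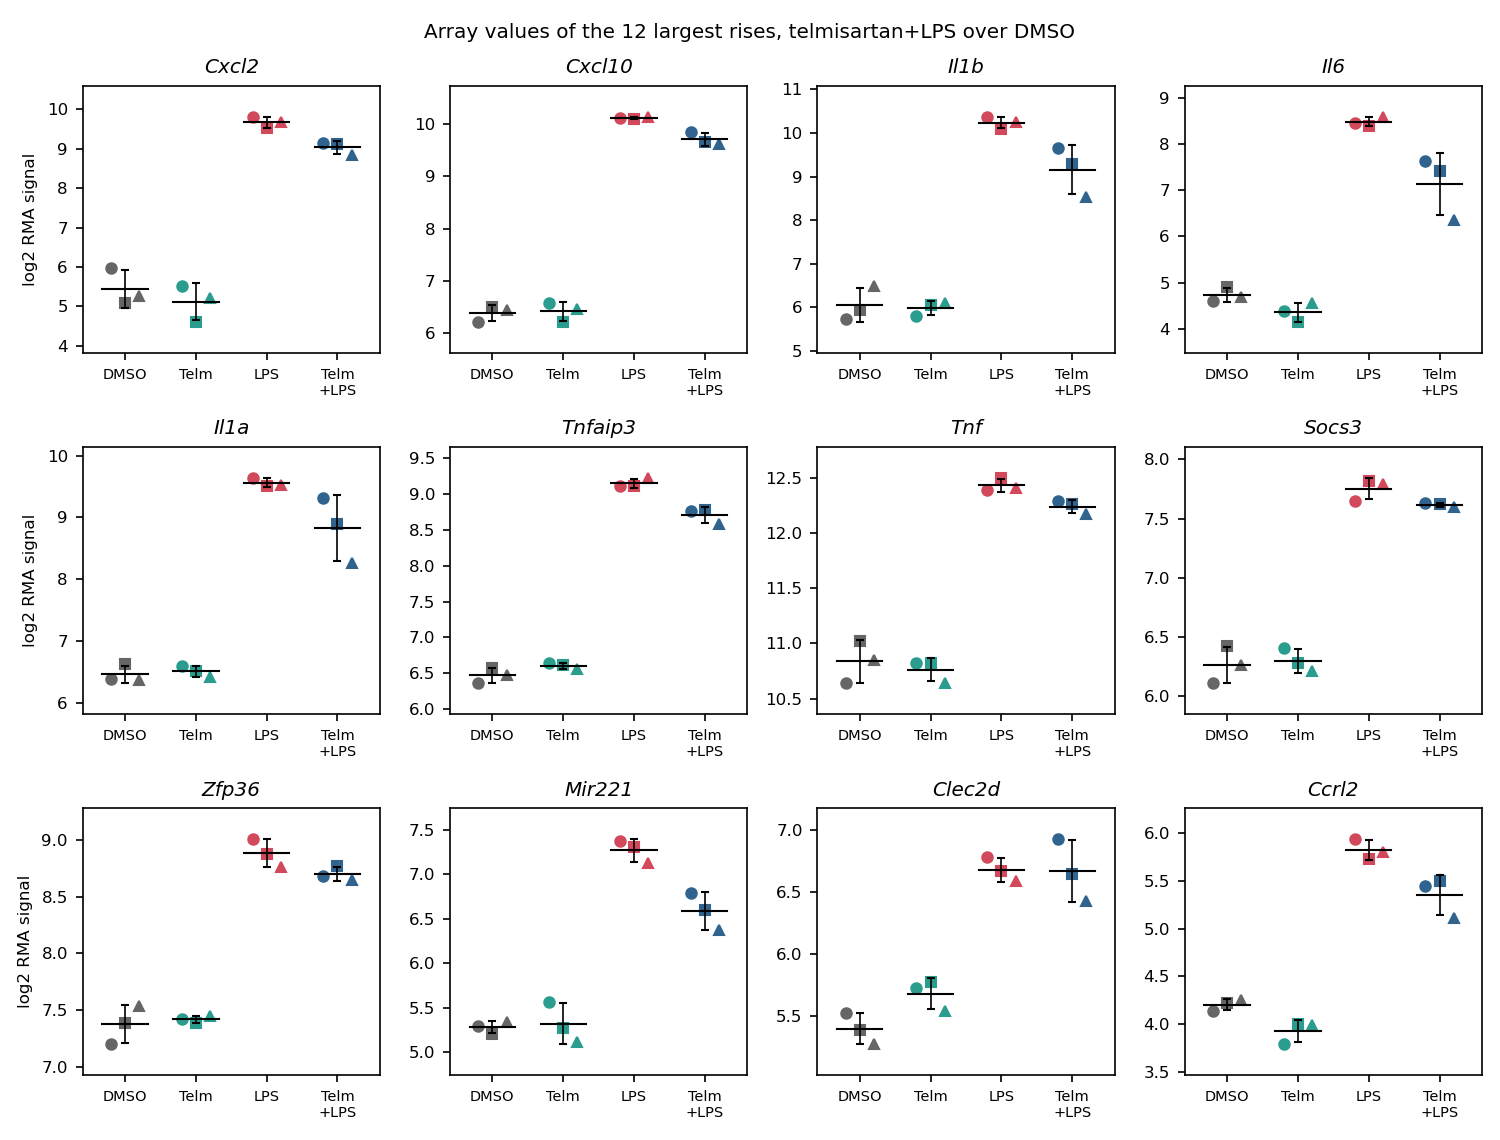
Log2 RMA signal (vertical axis) of the 12 genes with the largest rises, in 4 groups of 3 arrays (horizontal axis); points are arrays (circle replicate 1, square 2, triangle 3), long bars the mean and error bars the SD. In every panel the 3 telmisartan+LPS arrays lie above the 3 DMSO arrays, and replicate 3 is the lowest telmisartan+LPS array.

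None of the 23 measured genes of the LPS and Toll-like receptor sensing list, which also holds adaptors and kinases downstream of the receptors, was called. Their median change was 0.013, and 2 were higher and none lower at an unadjusted p under 0.05, compared with 5.82% and 5.57% of all genes. Tlr4 measured 5.87, 5.74 and 6.11 with DMSO and 5.92, 5.51 and 5.72 with telmisartan+LPS (difference -0.19, 95% interval -0.48 to 0.10; adjusted p = 0.622), and the groups overlapped. Cd14, at 10.98, 11.05 and 11.10 against 11.05, 11.12 and 11.03, differed by 0.02 (-0.12 to 0.17; adjusted p = 0.922). Tlr2, the receptor for bacterial lipoproteins, was the member with the largest difference, at 0.29 ± 0.08 (adjusted p = 0.232). Among 25 cytokine and chemokine receptor genes 1 rose. This was Ccrl2, an atypical receptor that binds chemerin without signalling, at 4.14, 4.22 and 4.25 with DMSO and 5.45, 5.50 and 5.11 with telmisartan+LPS. Its rise was 1.15 ± 0.10 (adjusted p = 8.57e-05), with replicate 3 lowest and no overlap.

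The NF-kB genes that rose encode inhibitors or regulators of the pathway. Of 23 subunit and inhibitor genes measured, 3 were called higher and none lower, and the median was 0.097. Tnfaip3, which encodes a ubiquitin-editing enzyme that shuts down NF-kB signalling, measured 6.36, 6.57 and 6.48 with DMSO and 8.77, 8.78 and 8.58 with telmisartan+LPS. It rose by 2.24 ± 0.08, or 4.72-fold (4.20 to 5.31; adjusted p = 4.51e-09). Nfkbiz, which encodes a nuclear IkB protein needed for Il6 induction, measured 7.83, 8.0 and 7.89 with DMSO and 8.99, 8.82 and 8.82 with telmisartan+LPS, a rise of 0.97 ± 0.07 (adjusted p = 2.34e-05). The treated arrays of both genes were tightly grouped and far above the vehicle arrays. Nfkbia, the gene of the classical inhibitor IkB alpha, measured 10.20, 10.34 and 10.36 with DMSO and 11.19, 11.08 and 11.15 with telmisartan+LPS, and rose by 0.84 ± 0.07 (adjusted p = 3.04e-05). Nfkbie, the gene of a further IkB protein, differed by 0.68 ± 0.14 without passing the test (adjusted p = 0.0878), although its groups did not overlap; the arrays did not overlap for any of the 40 called genes, nor for 15.1% of all genes.

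Effector targets of NF-kB were the list with the highest median, 0.33, and 5 of its 22 measured members rose. Besides Ccrl2 these were Ier3, Pim1, Gpr84 and Nlrp3. Ier3, an immediate early gene that affects cell survival, measured 9.74, 9.97 and 9.96 with DMSO and 10.87, 10.74 and 10.64 with telmisartan+LPS, and rose by 0.86 ± 0.10 (adjusted p = 0.0017). Pim1, which encodes a serine/threonine kinase that supports survival, rose by 0.83 ± 0.08 (adjusted p = 0.00017), from 7.84, 8.06 and 7.90 to 8.85, 8.81 and 8.63. A second and dim Pim1 feature, with means of 3.5 and 3.44, differed by -0.06, and with the mean of both features the call was lost, at 0.39 (adjusted p = 0.0647). Gpr84, the gene of a receptor for medium-chain fatty acids, measured 8.12, 8.26 and 8.24 with DMSO and 8.95, 9.08 and 8.88 with telmisartan+LPS, and rose by 0.76 ± 0.08 (adjusted p = 0.000553). None of these genes' groups overlapped. With a trended robust fit in limma 9 of the 22 were called, all higher.

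Genes that damp MAP kinase and cytokine signalling were represented by 3 rises among 25 measured, with a median of 0.10. Socs3, an inhibitor of JAK-STAT signalling, measured 6.11, 6.42 and 6.26 with DMSO and 7.63, 7.62 and 7.6 with telmisartan+LPS. It rose by 1.35 ± 0.09, or 2.56-fold (2.25 to 2.91; adjusted p = 5e-06), and its treated arrays were almost equal. A second Socs3 feature, dim in both groups, differed by 0.09. Zfp36, which encodes tristetraprolin, a protein that speeds the decay of Tnf mRNA and other AU-rich mRNAs, measured 7.20, 7.39 and 7.54 with DMSO and 8.68, 8.77 and 8.65 with telmisartan+LPS, and rose by 1.32 ± 0.09 (adjusted p = 6.76e-06). Dusp1, the gene of a phosphatase that inactivates p38 and JNK, measured 6.99, 7.38 and 7.25 with DMSO and 8.03, 7.82 and 7.87 with telmisartan+LPS, a rise of 0.70 ± 0.11 (adjusted p = 0.0197). The Dusp1 groups were apart, but the call was lost without DMSO replicate 1 or 3 or telmisartan+LPS replicate 1 or 3, at changes of 0.59 to 0.72 and adjusted p of at most 0.113. Dusp6, a phosphatase specific for ERK, differed by -0.41 ± 0.10 (adjusted p = 0.166).

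Among 30 immediate early factors 3 rose, with a median of 0.11. Btg2, an antiproliferative early response gene that is also a p53 target, measured 5.10, 5.33 and 5.23 with DMSO and 6.25, 6.23 and 6.15 with telmisartan+LPS, and rose by 0.99 ± 0.12 (adjusted p = 0.00128). Junb, a subunit of the transcription factor AP-1, measured 8.10, 8.47 and 8.16 with DMSO and 8.79, 9.04 and 8.89 with telmisartan+LPS, a rise of 0.66 ± 0.10 (adjusted p = 0.0139). Jun, a further AP-1 subunit, measured 7.48, 7.58 and 7.58 with DMSO and 8.29, 8.09 and 7.95 with telmisartan+LPS, a rise of 0.56 ± 0.08 (adjusted p = 0.0121). No group overlapped in any of these genes. The Junb call was lost without DMSO replicate 1 or 3 or telmisartan+LPS replicate 2 or 3 (0.59 to 0.67, adjusted p of at most 0.0908), and that of Jun without DMSO replicate 1 or 3 (0.53 to 0.58, adjusted p of at most 0.08). With telmisartan+LPS replicates 1 and 3 both left out, none of the 30 was called, and with a trended robust fit in limma 6 of the 30 were, all higher. Myc differed by 0.61 ± 0.12 and did not pass the test (adjusted p = 0.0878).

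Of 18 genes for inflammatory enzymes and NADPH oxidase subunits 1 rose, and the median was 0.13. Acod1, which encodes the mitochondrial enzyme that makes itaconate, measured 8.96, 9.0 and 8.99 with DMSO and 10.09, 10.0 and 9.92 with telmisartan+LPS, and rose by 1.02 ± 0.08, or 2.03-fold (1.80 to 2.29; adjusted p = 2.6e-05). Ptgs2, the gene of the inducible cyclooxygenase, measured 8.70, 8.65 and 8.98 with DMSO and 9.68, 9.34 and 9.07 with telmisartan+LPS. Its difference of 0.59 ± 0.13 did not pass the test (adjusted p = 0.126), and replicate 3 lay just above the highest vehicle array. Nos2, the gene of inducible nitric oxide synthase, differed by 0.22 (0.01 to 0.43; adjusted p = 0.421), with overlapping groups.

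In the inflammasome list 2 of 16 genes rose, Il1b and Nlrp3, with a median of -0.042. Nlrp3, the sensor whose transcription primes the inflammasome, measured 6.90, 6.84 and 6.97 with DMSO and 7.66, 7.6 and 7.57 with telmisartan+LPS. It rose by 0.71 ± 0.08, or 1.63-fold (1.45 to 1.84; adjusted p = 0.000789), with narrow and well separated groups. The interferon list had 1 rise among 29 genes and a median of 0.033. That gene was Irf1, a transcription factor of the early interferon response, at 5.09, 5.39 and 5.42 with DMSO and 6.09, 6.15 and 5.96 with telmisartan+LPS (rise 0.77 ± 0.11; adjusted p = 0.0061). Rsad2, the gene of the antiviral enzyme viperin, differed by 0.44 ± 0.09 (adjusted p = 0.0878), and Ifit1 by 0.29 (adjusted p = 0.369).

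Antigen presentation and co-stimulation genes included 2 rises among 21, with a median of 0.073. Cd69, an early activation antigen, measured 4.07, 3.84 and 3.81 with DMSO and 5.14, 4.74 and 4.61 with telmisartan+LPS, a rise of 0.92 ± 0.15 (adjusted p = 0.0187). Cd274, which encodes the checkpoint ligand PD-L1, measured 7.04, 6.91 and 6.98 with DMSO and 7.75, 7.47 and 7.57 with telmisartan+LPS, a rise of 0.62 ± 0.08 (adjusted p = 0.0052). Neither gene's groups overlapped. The Cd69 call was lost without DMSO replicate 2 or 3 or telmisartan+LPS replicate 1 or 2 (0.77 to 0.97, adjusted p of at most 0.108). The Cd274 call was lost when only the 6 arrays compared were fitted (adjusted p = 0.0563), and with telmisartan+LPS replicates 1 and 3 both left out neither gene was called.

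The microRNA locus Mir221 was among the rises, and the sequences it yields are shown with those of its neighbour Mir222, since the arrays read the locus transcript and not the mature strands. They are RefSeq sequences (GRCm38.p6, chromosome X, minus strand) with the seed, bases 2 to 8, in capitals.
mmu-miR-221-3p: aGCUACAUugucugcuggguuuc
mmu-miR-221-5p: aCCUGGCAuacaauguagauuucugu
mmu-miR-222-3p: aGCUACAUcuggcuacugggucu
The -3p strands share the seed GCUACAU. Mir221 measured 5.30, 5.21 and 5.34 with DMSO and 6.79, 6.60 and 6.37 with telmisartan+LPS, and rose by 1.3 ± 0.12, or 2.47-fold (2.05 to 2.97; adjusted p = 0.00014). Mir222 measured 4.25, 4.65 and 4.23 with DMSO and 5.19, 5.26 and 5.52 with telmisartan+LPS, and its difference of 0.95 ± 0.17 did not pass the test (adjusted p = 0.0558). The treated arrays of both loci lay above all vehicle arrays. Mir221 was the only call among 7 microRNA loci measured.

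Other rises belonged to none of these groups. Clec2d, which encodes a C-type lectin-like ligand of an inhibitory natural killer cell receptor, measured 5.53, 5.39 and 5.28 with DMSO and 6.93, 6.65 and 6.43 with telmisartan+LPS, a rise of 1.27 ± 0.12 (adjusted p = 0.00011). Slc2a6, a member of the facilitative glucose transporter family, had the smallest called rise, 0.52 ± 0.07 (adjusted p = 0.00711), from 6.84, 6.90 and 6.92 to 7.41, 7.45 and 7.35. Both were apart in all arrays. Nupr1, a stress-induced chromatin protein, was the only one of 23 integrated stress response genes to be called, at 6.71, 6.92 and 6.83 with DMSO and 7.36, 7.43 and 7.49 with telmisartan+LPS (rise 0.61 ± 0.08; adjusted p = 0.00331). The remaining rises, named after their values were seen, were Slfn2 at 0.82 (a Schlafen family gene), Pde4b at 0.72 (a cyclic AMP phosphodiesterase), Prdm1 at 0.70 (the transcriptional repressor Blimp-1), Kcnj2 at 0.62 (an inward rectifier potassium channel) and Dynap at 0.61. Prdm1 and Dynap stood close to the threshold (adjusted p = 0.0472 and 0.0483), and each lost its call without any 1 of 10 of the 12 arrays, at 0.58 to 0.74 for Prdm1 and 0.52 to 0.61 for Dynap. Dynap was also dim in both groups, with means of 2.94 with DMSO and 3.55 with telmisartan+LPS. Kcnj2 lost its call without DMSO replicate 1 or telmisartan+LPS replicate 1, at 0.56 to 0.62 (adjusted p of at most 0.0597).

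H4c14, a replication-type histone H4 gene, rose without a matching value in the LPS group. It measured 6.53, 6.52 and 6.50 with DMSO, 7.30, 7.34 and 7.41 with telmisartan+LPS, 6.44, 6.62 and 6.35 with LPS, and 7.56, 6.92 and 7.04 with telmisartan alone. The arrays of both telmisartan groups lay above all arrays of both groups without the drug. The rise over DMSO was 0.83 ± 0.13 (adjusted p = 0.0182), whereas LPS minus DMSO was -0.05 (adjusted p = 0.945) and telmisartan minus DMSO was 0.66 (adjusted p = 0.67). Telmisartan+LPS minus LPS was 0.88 ± 0.13 (adjusted p = 0.134). The call against DMSO was lost without any 1 of the 3 DMSO or 3 telmisartan+LPS arrays, at 0.80 to 0.86 and adjusted p of at most 0.0902. Histone H4 genes are near-identical in coding sequence, and whether the feature also reads other copies was not tested.

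The 4 falls were each under 1 on the log2 scale. Ing2, which encodes a reader of methylated histone H3, measured 6.28, 6.26 and 6.05 with DMSO and 5.58, 5.79 and 5.66 with telmisartan+LPS, and fell by 0.52 (SE 0.08; adjusted p = 0.0187). Ppm1j, which encodes a protein phosphatase of the PP2C family, measured 5.76, 5.57 and 5.66 with DMSO and 5.02, 5.10 and 5.30 with telmisartan+LPS, and fell by 0.52 (SE 0.09; adjusted p = 0.0239). All telmisartan+LPS arrays of both genes also lay below all LPS arrays, and LPS minus DMSO was -0.18 for each (adjusted p = 0.552 for Ing2 and 0.558 for Ppm1j). The Ing2 call was lost without DMSO replicate 1 or 2 or telmisartan+LPS replicate 1 or 3 (-0.51 to -0.47, adjusted p of at most 0.116). That of Ppm1j was lost without DMSO replicate 1 or 3 or telmisartan+LPS replicate 1 or 2 (-0.53 to -0.46, adjusted p of at most 0.13). The other falls, named after their values were seen, were the RIKEN gene B130006D01Rik at -0.74 (adjusted p = 0.0116; -0.68 and 0.0646 without telmisartan+LPS replicate 3) and the odorant receptor gene Olfr810 at -0.50 (adjusted p = 0.0414). Olfr810 was dim in both groups, with means of 3.26 and 2.76, and its call was lost without any 1 of 11 of the 12 arrays (-0.55 to -0.44). All telmisartan+LPS arrays of B130006D01Rik (4.75, 4.67 and 4.54) also lay below all its LPS arrays (4.88, 4.80 and 5.01). LPS minus DMSO was -0.53 for Olfr810 (adjusted p = 0.0143) and -0.49 for B130006D01Rik (adjusted p = 0.106). Telmisartan minus DMSO was -0.46 for Olfr810 (adjusted p = 0.555) and -0.22 for B130006D01Rik (adjusted p = 0.932).

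**Figure D2:**
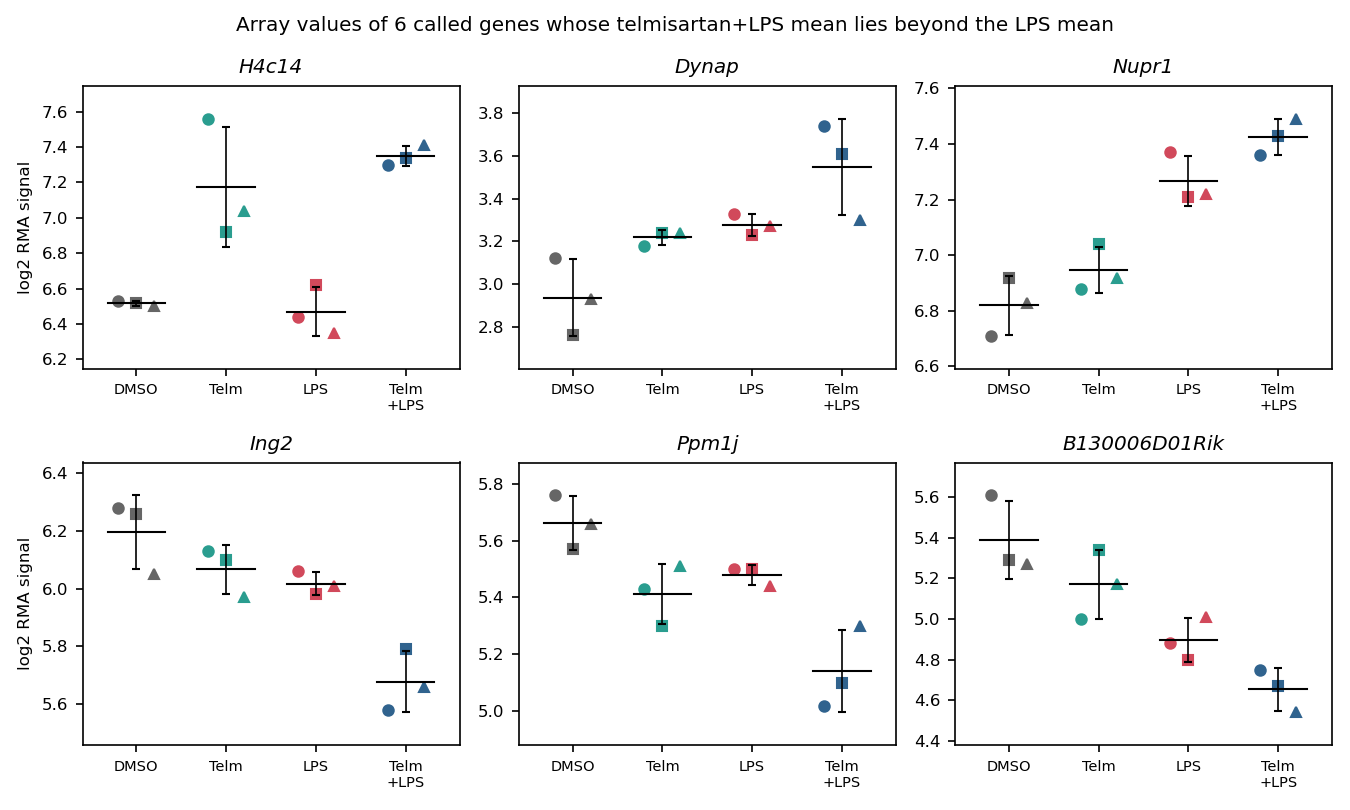
Log2 RMA signal (vertical axis) of 6 called genes whose telmisartan+LPS mean lies farther from the DMSO mean than the LPS mean does, in 4 groups of 3 arrays; points are arrays (circle replicate 1, square 2, triangle 3), long bars the mean and error bars the SD. H4c14 is high in both telmisartan groups, while Ing2, Ppm1j and B130006D01Rik have their lowest mean in the telmisartan+LPS group.

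The values in cells given LPS without the drug were set beside these changes. LPS minus DMSO had 95 calls (0.428% of genes), and it shares the 3 DMSO arrays with telmisartan+LPS minus DMSO, so both are given side by side and no overlap is counted. For Cxcl2 the rise was 4.23 with LPS and 3.59 with telmisartan+LPS. That of Cxcl10 was 3.73 and 3.32, that of Il1b 4.19 and 3.11, and that of Il6 3.75 and 2.41, in the same order. Tnf rose by 1.6 and 1.4, Tnfaip3 by 2.68 and 2.24, Mir221 by 1.98 and 1.3, and Nlrp3 by 1.26 and 0.71. At the other end, Clec2d rose by 1.28 and 1.27, Slc2a6 by 0.53 and 0.52, Junb by 0.69 and 0.66, Irf1 by 0.86 and 0.77 and Ccl5 by 0.75 and 0.66. Ptgs2 and Fas, the gene of a death receptor, were called with LPS (1.24 with adjusted p = 0.000288, and 1.04 with adjusted p = 7.75e-05) and not with telmisartan+LPS (0.59, and 0.45 with adjusted p = 0.109). That pair of outcomes is no test of a difference. The missing calls also depended on telmisartan+LPS replicate 3. Without it both genes were called against DMSO in limma, Ptgs2 at 0.73 (adjusted p = 0.0265) and Fas at 0.58 (adjusted p = 0.00488). In telmisartan+LPS minus LPS, Ptgs2 differed by -0.65 (adjusted p = 0.263) and Fas by -0.59 (adjusted p = 0.134), and neither was called.

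The direct test, telmisartan+LPS minus LPS, called 0 of 22180 genes (0.0%) in limma, with 2176 (9.81%) at an unadjusted p under 0.05 and a smallest adjusted p of 0.134. Of the 36 called rises, 18 were lower than in the LPS group at an unadjusted p under 0.05, 2 were higher, and none passed the adjusted threshold, whereas 4.31% of all genes were lower and 5.50% higher. All telmisartan+LPS arrays lay below all LPS arrays for 20 of the 36, against 6.23% of all genes. These counts use the same telmisartan+LPS arrays as the calls and are a description. Among the called rises the most negative differences were those of Il6 (-1.35 ± 0.24, unadjusted p = 8.91e-05, adjusted p = 0.18), Il1b (-1.08 ± 0.24, adjusted p = 0.263), Il1a (-0.73 ± 0.19, adjusted p = 0.314), Mir221 (-0.68 ± 0.12, adjusted p = 0.184) and Cxcl2 (-0.64 ± 0.23, adjusted p = 0.398). In Il6 the LPS arrays measured 8.45, 8.40 and 8.59, above all 3 telmisartan+LPS arrays. Telmisartan+LPS replicate 3 lowered these means: it read 6.36 in Il6, where replicates 1 and 2 read 7.63 and 7.41. In Il1b it read 8.54 (9.66 and 9.28) and in Il1a 8.27 (9.32 and 8.89). It was also the lowest of the 3 in Mir221 and Cxcl2. For Clec2d the interval of the difference was -0.26 to 0.24, for Slc2a6 -0.17 to 0.14 and for Junb -0.25 to 0.19. The remaining small differences were those of Irf1 (-0.32 to 0.14) and Ccl5 (-0.32 to 0.15).

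Telmisartan without LPS was compared with DMSO in the same fit. It had 0 calls (0.0%) in limma. Before adjustment 1222 genes (5.51%) had a p under 0.05, including 5 of the called rises. These 5 were Ier3 (-0.41), Ccrl2 (-0.28), Clec2d (0.28), Dynap (0.28) and H4c14 (0.66). The changes of the 36 genes ran from -0.41 for Ier3 to 0.66 for H4c14. Against telmisartan alone, telmisartan+LPS had 58 calls (0.261%). Cxcl2 was higher by 3.92, Il6 by 2.77 and Ier3 by 1.27 in that comparison, and H4c14 differed by 0.18 (adjusted p = 0.585). Clec2d was higher by 0.99, beside 1.28 in LPS minus DMSO, so its near-equal totals over DMSO include the change with the drug alone. The interaction, which is the LPS effect with the drug minus that without it, had 0 calls (0.0%) in limma, 1725 genes (7.78%) at an unadjusted p under 0.05 and a smallest adjusted p of 0.187. For Tnfaip3 it was -0.58 ± 0.11 (adjusted p = 0.417) and for Il6 -0.98 ± 0.34 (adjusted p = 0.604).

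**Figure D3:**
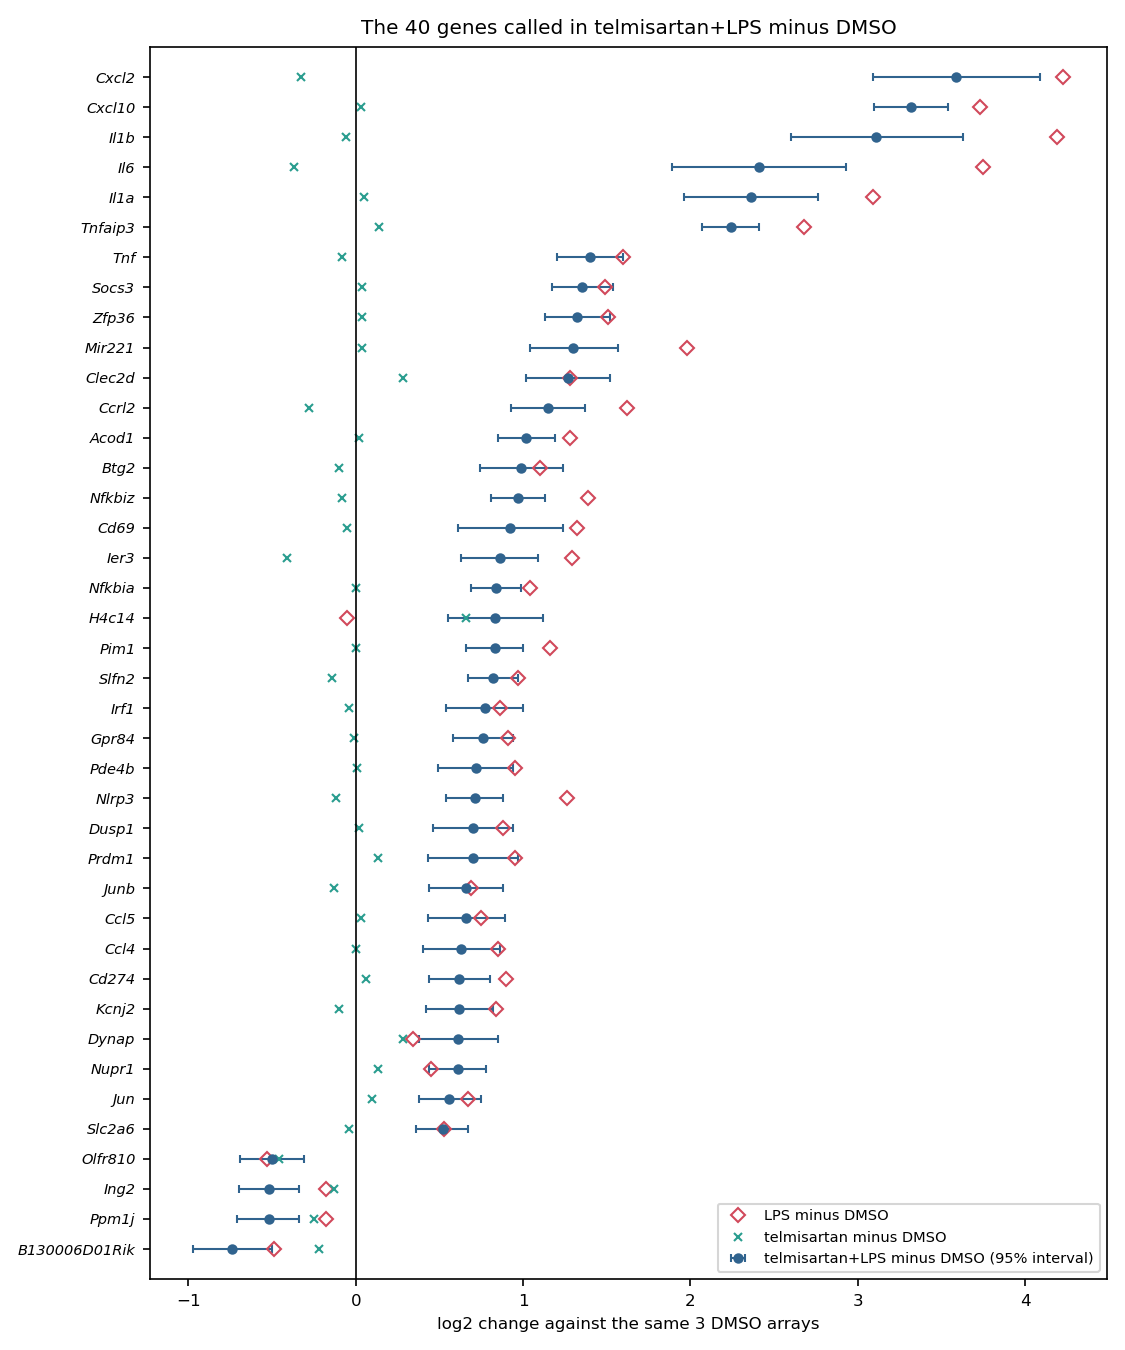
Log2 change against the same 3 DMSO arrays (horizontal axis) of the 40 called genes (vertical axis): telmisartan+LPS as filled circles with 95% intervals, LPS as open diamonds and telmisartan as crosses. The changes with telmisartan alone run from -0.46 for Olfr810 to 0.66 for H4c14. The LPS diamonds of Cxcl2, Cxcl10, Il1b, Il6, Il1a, Tnfaip3 and Mir221, among others, lie beyond the intervals for telmisartan+LPS. That is no test of telmisartan+LPS against LPS, since the diamonds carry an error of their own, and the direct test called 0 genes in limma.

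Agtr1a, Agtr1b and Pparg, the genes of the drug's own targets, were dim, and no member of their lists was called. The 10 measured genes of the renin-angiotensin system had a median change of 0.0067. Agtr1a, the gene of the type 1 receptor, measured 3.30, 3.14 and 3.24 with DMSO and 3.42, 2.97 and 3.33 with telmisartan+LPS, a difference of 0.01 (-0.29 to 0.31). Agtr1b and Agtr2 differed by 0.03 each. These signals lay below the array medians of 4.08 to 4.13 over all features, and an RMA value does not say whether a transcript was present. The PPAR list of receptors and lipid targets also had a median of 0.0067 over 17 genes, with Pparg at 3.06, 3.14 and 3.33 with DMSO and 3.26, 3.08 and 3.29 with telmisartan+LPS (difference 0.03, -0.17 to 0.24). Ppara differed by 0.08 and Ppard by 0.19 (adjusted p = 0.546), and Pdk4, a PPAR target, by 0.31 (adjusted p = 0.255). The groups overlapped for all 3 PPAR receptors and all 3 angiotensin receptors.

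No member was called in the lists for LXR-driven cholesterol efflux (10 genes, median -0.013), sterol synthesis (16, median 0.052), Nrf2 targets (15, median -0.057), hypoxia and glycolysis (20, median -0.038), cytosolic ribosomal proteins (18, median 0.037) and oxidative phosphorylation (25, median -0.01). Txnip, an inhibitor of thioredoxin in the growth regulator list, measured 10.71, 10.71 and 10.72 with DMSO and 10.42, 10.47 and 10.39 with telmisartan+LPS, a difference of -0.29 that did not pass the test (adjusted p = 0.0824). In that list Btg2 was the only call among 20 genes, and 6 were lower at an unadjusted p under 0.05, compared with 5.57% of all genes. The list median was -0.03. Among 18 p53 targets Btg2 was again the only call, and Plk2, a polo-like kinase, differed by 0.42 (adjusted p = 0.0675). The 12 genes of mitochondrial DNA maintenance had a median of -0.087, and Polg2, a subunit of the mitochondrial DNA polymerase, differed by -0.44 (adjusted p = 0.172).

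Microglial state and cell cycle genes had no calls. The 18 homeostatic genes had a median of 0.053 and the 16 disease-associated genes -0.025. C1qb, a complement subunit made by microglia, differed by 0.28 (adjusted p = 0.239), and Apoe by -0.07 (adjusted p = 0.791). The 21 genes of DNA replication had a median of -0.063, with 17 below 0, and the 19 genes of G2 and mitosis a median of -0.11, with 18 below 0. Of all genes, 10757 of 22180 were below 0. Bub1b, a kinase of the spindle checkpoint, measured 9.29, 9.16 and 9.30 with DMSO and 8.99, 9.02 and 9.06 with telmisartan+LPS, a difference of -0.23 (adjusted p = 0.239), and its groups did not overlap.

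**Figure D4:**
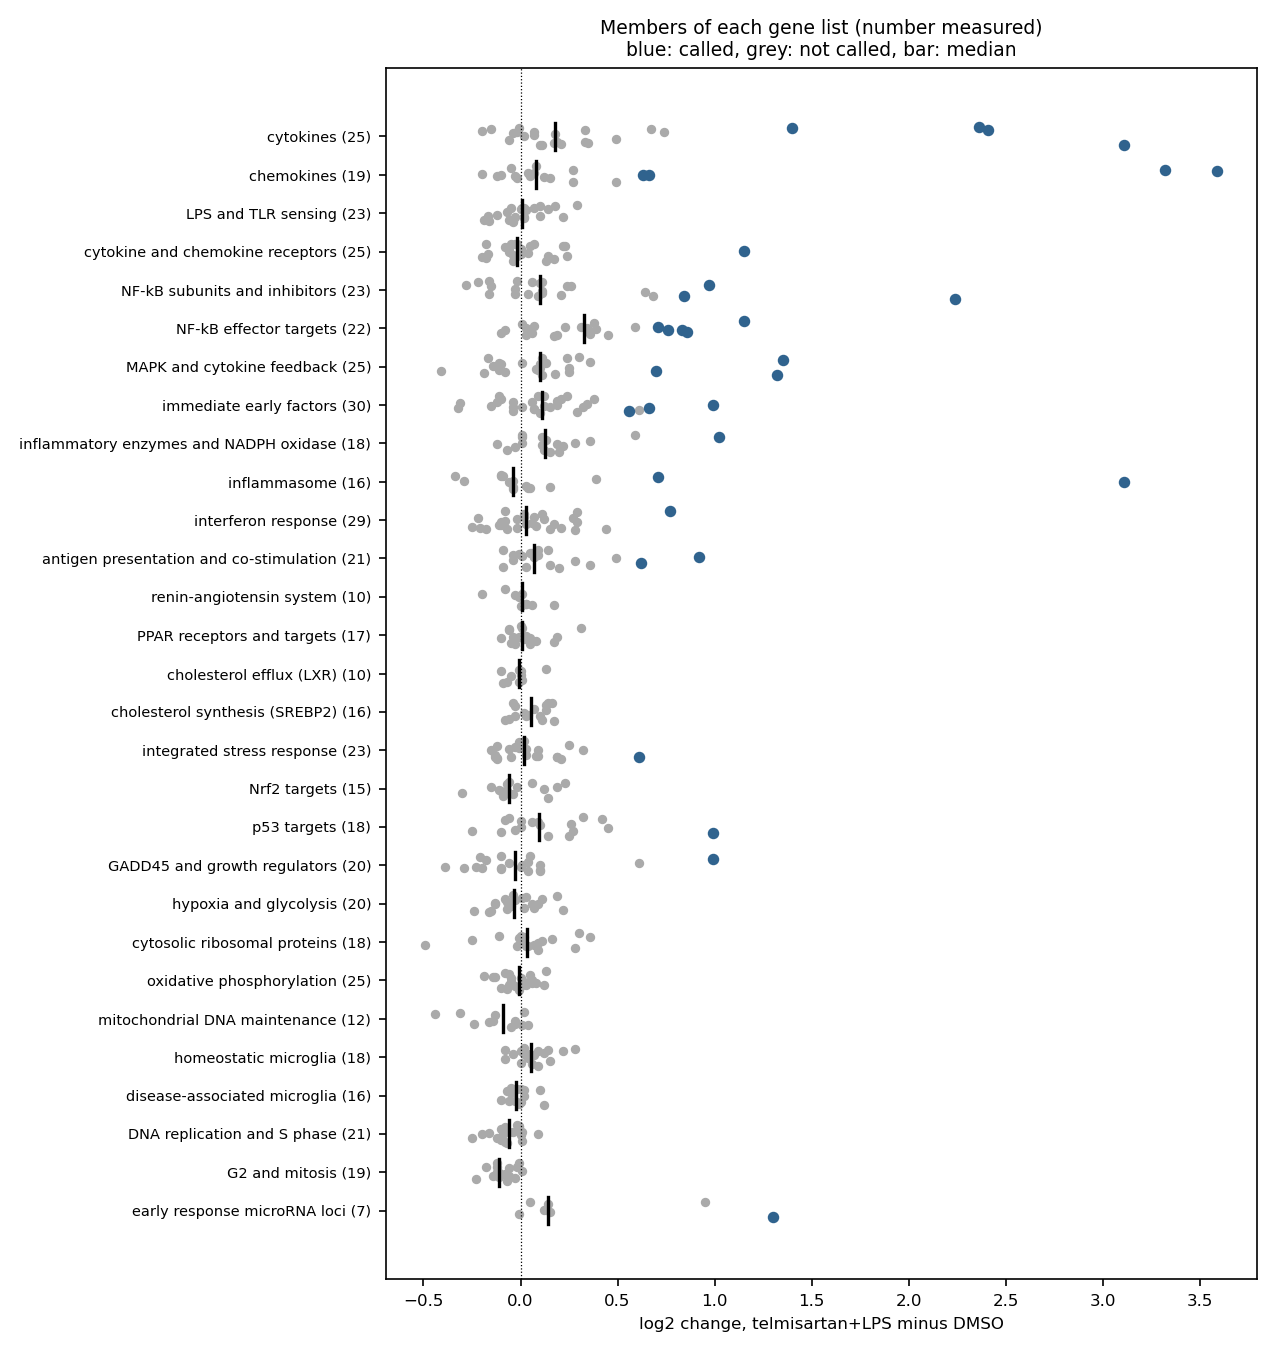
Log2 change, telmisartan+LPS minus DMSO (horizontal axis), of each measured member of 29 gene lists (vertical axis, with the number measured); blue points are called genes, grey points genes not called, and black bars the list median. Called genes lie to the right of 0 in every list that has any, the medians run from -0.11 for G2 and mitosis to 0.33 for NF-kB effector targets, and the lists of the drug's targets have none.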

How the data were processed

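RNA from BV2 cells was measured on 12 arrays, 3 for each of 4 treatments. Per the file headers, the authors made log2 RMA signals in Affymetrix Expression Console (engine 1.4.1.46) with background correction, quantile normalization over the arrays and median polish. The array design named in the headers is a later one than that in the labelling protocol. The deposited tables, a summary table (used here) and a series matrix (an alternative), differed by at most 0.005. Quantile normalization gives all arrays nearly 1 distribution, so a shift of most genes together would be removed.

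Of 41345 features, 23521 had 1 symbol in the platform annotation, 1820 several and 16004 none. Through Entrez IDs 23328 were checked against RefSeq (GRCm38.p6) names, and 193 kept the platform's symbol. Of the 22180 genes, 1082 had more than 1 feature. A mean for each of the 4 groups was fitted to all 12 arrays with lmFit and eBayes (R 4.3.3; limma 3.58.1; statmod 1.5.0 for weights), giving 8 residual and 4.99 prior degrees of freedom, and calls had no fold minimum. Residual SDs had a median of 0.117 over genes, and the number of arrays limits the precision. On simulated data with 50 of the 22180 genes changed at each size, this comparison recovered 19 at 1.3-fold, 47 at 1.5-fold and 50 at 2-fold. The simulated noise was normal and independent between arrays, with each gene's fitted spread, and all sizes were planted together. These counts therefore do not give the recovery in the real arrays, where Mir222, at 1.93-fold, was not called (adjusted p = 0.0558).

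The comparison, the gene lists and the naming rule were chosen with earlier results of these data known, so lists are described by counts and medians only. Named were the 15 largest rises and falls with separate groups (predicted genes and many-copy families left out), up to 4 members of a list by size of change, 13 genes of LPS signalling and drug targets, called genes with an unadjusted p of 0.05 or more for LPS minus DMSO, and the 5 largest and smallest differences from the LPS group among the rises. Alternatives were the 6 arrays alone, the series matrix, a trended robust fit, dim genes left out, centred arrays, the mean of a gene's features, adjustment over all features, array weights and each array left out, with 2 added after seeing the data, a pair of arrays left out and runs of title numbers as a block.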

Additional observations from a re-analysis of the deposited data

Results flagged for a closer look

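Outside the named genes, some features that the platform annotation lists with several gene names or none also passed the threshold. With p-values adjusted over all 41345 features in limma, 9 of these were higher in telmisartan+LPS than in DMSO. They were 3 of the 1820 with several names and 6 of the 16004 with none. A further 11 were lower, all without a name. Under the same adjustment 28 of the 23521 features with 1 symbol were called, so these counts are not set apart from the other features. The largest rises were 1.65 on the log2 scale among features with several names and 1.26 among those without, and the largest fall was -2.44. Among the called features without a name, 4 form pairs with identical values on all 12 arrays, so the number of distinct rises is smaller.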

How the results depend on the processing

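All 40 called genes kept their direction in each of the 22 alternatives that tested them, and 17 of the 36 rises were called in each alternative that tested them, Cxcl2, Cxcl10, Il1b, Il6, Il1a, Tnfaip3, Tnf and Mir221 among them. The count of 40 calls (36 higher, 4 lower) became 89 (67 and 22) with a trended robust fit (with 3 rises of 29 interferon response genes, 3 of 21 antigen presentation genes and 2 of 7 microRNA loci), and 76 (55 and 21) with dim genes left out, which tests 9724 genes. The falls went to 0 with the 6 arrays alone (31 rises) and to 0 with adjustment over all features (28 rises). Ccl4, Cd69, Dusp1, Dynap, Junb and Prdm1 lost their call under both, Cd274 and Jun under the first, and Ccl5 and H4c14 under the second. With telmisartan+LPS replicates 1 and 3 both left out, chosen after seeing the data, 23 genes were called, 22 higher and 1 lower, and Btg2, Ier3, Irf1, Nlrp3, Nupr1, Pde4b and Slc2a6 lost their call under that alternative alone. Leaving out 1 array at a time gave 30 to 43 calls, 27 to 38 higher and 1 to 7 lower, the fewest in total without DMSO replicate 3 and the most without DMSO replicate 2; the cause was not tested. Of the 36 rises, 26 kept their call without any 1 array. Centring the arrays left 38 rises and 4 falls. Array weights turned the sign of Agtr1a, to -0.02. With 1 array left out, the sign turned for 8 genes that were not called, with ranges of -0.16 to 0.01 for Ace, -0.08 to 0.15 for Agtr1a, -0.07 to 0.10 for Agtr1b, -0.03 to 0.10 for Agtr2, -0.01 to 0.05 for Cd14, -0.03 to 0.24 for Mir9-1, -0.42 to 0.20 for Mterf1a and -0.02 to 0.11 for Pparg. The titles number the arrays in 3 runs of 4 treatments in the same order, and no label says that a run shares a culture or batch. Deviations from the group means correlated at -0.05 to 0.08 over the 18 pairs of arrays within a run, and 5 of 12 arrays correlated best with one of their own run. With the runs as a replicate block, also chosen after seeing the data, 40 genes were called, 37 higher and 3 lower. The dose of the drug, the probes shared between gene copies and the presence of dim transcripts could not be checked in these tables, and 3 arrays a group limit what can be called.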
